A study of Sus scrofa with 2 samples.

Results

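The genes FOS, FOSB, JUN, JUNB, EGR1, NR4A1, ATF3 and IER2, a set of immediate early genes, were followed across the cell classes of newborn pig (Sus scrofa) olfactory mucosa. They were chosen by name, and all 8 were among the 25880 genes counted in the study. FOS, FOSB, JUNB, EGR1, NR4A1, ATF3 and IER2 carried their symbols in the count tables, and JUN was listed under its Ensembl identifier ENSSSCG00000031912, which a table of gene names assigned to it. Single-nucleus RNA sequencing with droplet barcodes was done on frozen, sectioned mucosa of 1 CFTR knockout newborn piglet and 1 wild type newborn piglet, with 1 library each. The labels describe neither the knockout allele nor a treatment, and both piglets' tissue went through the same freezing and nuclear isolation. With 1 library per genotype each difference compares 2 libraries, had no replicate check and was not tested. The intervals given are 95% intervals for counting error only.

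Immediate early genes are transcribed within minutes of a stimulus, from factors that are already in the cell, and their mRNAs are short-lived. FOS and JUN family proteins pair through leucine zippers into the AP-1 factor, EGR1 is a zinc finger factor downstream of the ERK pathway and serum response factor, NR4A1 is an orphan nuclear receptor, ATF3 is a stress-induced leucine zipper factor and IER2 a small nuclear protein. In neurons they follow electrical activity, and in rodent olfactory epithelium odour exposure is known to raise several of them. Growth factors, injury and handling of tissue raise them in other cell types.

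After filtering there were 5761 CFTR knockout nuclei with 15125185 unique molecular identifiers (UMIs, 1 per captured transcript) and 4536 wild type nuclei with 17128569 UMIs, with medians of 2093 and 2966 per nucleus. JUN was the only member with over 500 UMIs in the 2 libraries together. Levels are given as CPM, the UMIs of a gene scaled to a total of 1e6. CFTR itself was at 12.7 CPM in the knockout library and 88.9 CPM in the wild type library, a ratio of 0.143 (0.122 to 0.166). Mitochondrial transcripts made up 1.31% of knockout and 2.83% of wild type UMIs, and 8 barcodes occurred in both libraries. Nuclei were clustered without the members, 35 other immediate early genes, CFTR and mitochondrial transcripts, and classes were named from marker lists. There were 19 classes and clusters, of which 10 held at least 50 nuclei in both libraries. Markers of respiratory secretory cells were higher in the knockout library in each of those 10 classes, where the summed level of 10 such markers ranged from 994 to 2400 CPM in knockout nuclei, against 234 to 1079 CPM in wild type nuclei. SCGB1A1, the club cell secretoglobin, was at 0 in the compared classes except knockout fibroblast-like nuclei and wild type cluster 8, and was also at 0 in the secretory-like nuclei themselves (5254 and 4155 CPM of the summed markers). What part these transcripts have in the results was not tested.

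JUN was the most densely counted member, with 1518 knockout and 2665 wild type UMIs, and its order across classes differed between the libraries. In the knockout library JUN stood highest in endothelial-like nuclei (VWF and EMCN) at 209 CPM (161 to 269), macrophage-like nuclei (CD163 and MRC1) at 194 CPM (127 to 285) and respiratory secretory-like nuclei (BPIFA1 and WFDC2) at 188 CPM (165 to 213). These 3 neighbours did not differ beyond their intervals. In the wild type library JUN stood highest in immature olfactory neuron-like nuclei (GAP43 and STMN2), at 256 CPM (238 to 275). That interval lay above those of 11 of the 13 wild type classes with a value, and overlapped that of cluster 21, a shallow cluster with 174 CPM (115 to 251). Sustentacular-like nuclei, the supporting cells of the epithelium, followed at 209 CPM (192 to 227). Fibroblast-like nuclei had 31.2 and 46.5 CPM and cartilage or bone-like nuclei 60.2 and 38.2 CPM in knockout and wild type. Fibroblast-like nuclei were lowest in the knockout library and cartilage or bone-like nuclei in the wild type library. Among classes with a value in 1 library, the knockout library had 133 CPM in cluster 2, 109.9 CPM in lymphatic endothelial-like and 84.9 CPM in respiratory ciliated-like nuclei, and the wild type library 181 CPM in cluster 14 and 71.5 CPM in horizontal basal-like nuclei.

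**Figure D1:**
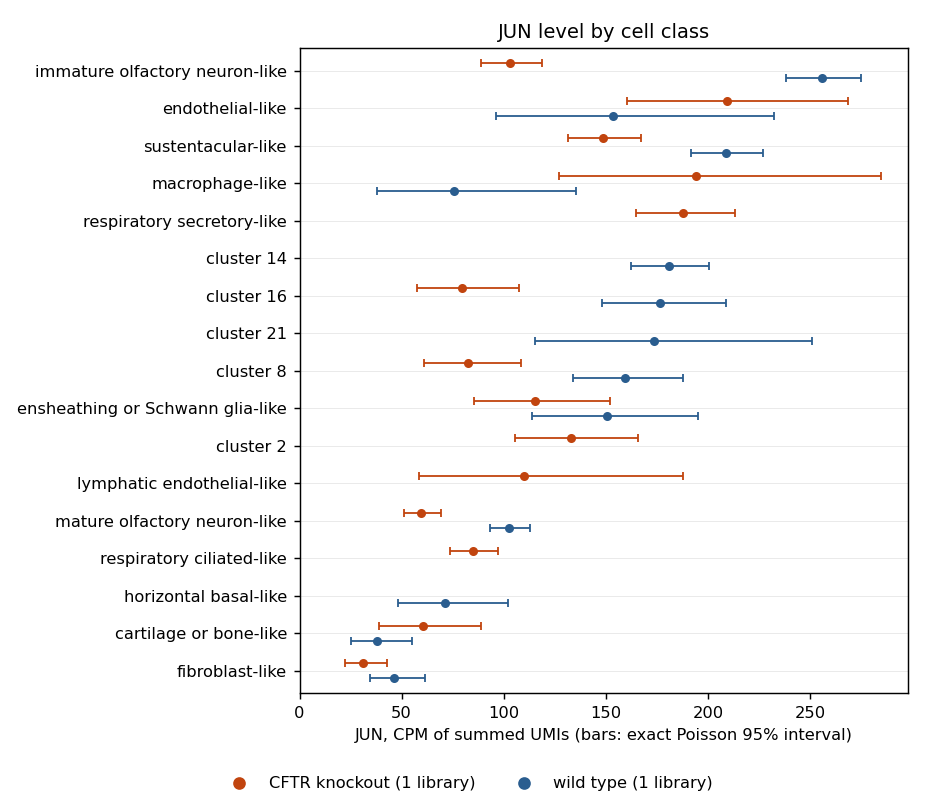
JUN in CPM of summed UMIs (x axis) by cell class (y axis), for the CFTR knockout library (orange, upper point of each row) and the wild type library (blue), with exact Poisson 95% intervals; a point is shown where a library held at least 50 nuclei of the class. The widest gap is in immature olfactory neuron-like nuclei, at 103 CPM in knockout and 256 CPM in wild type nuclei.

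Immature neurons had the lowest ratio of JUN between the libraries among the 10 compared classes. The 528 knockout nuclei held 189 UMIs (103 CPM, 88.7 to 119) and the 731 wild type nuclei 759 UMIs (256 CPM), a ratio of 0.402 (0.341 to 0.472) and a log2 ratio of -1.32. Of the 11592 genes with at least 20 UMIs in this class, 3.38% had a log2 ratio of -1 or less. The difference stood in each of the 2 clusters that make up the class. Cluster 19, led by PURG and TEX15, had 144 CPM in knockout and 393 CPM in wild type nuclei (ratio 0.367, 0.227 to 0.567), and cluster 6 had 99.0 and 229 CPM (ratio 0.432, 0.361 to 0.515). At a matched depth of 1000 UMIs per nucleus, 9.29% (6.90 to 12.2) of 506 knockout nuclei and 21.6% (18.7 to 24.9) of 707 wild type nuclei had a JUN UMI. Mitochondrial transcripts were 0.666% of knockout and 1.88% of wild type UMIs in this class, and their part in the result was not tested.

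The other neuronal classes differed in the same direction. Cluster 16, which held the precursor markers NEUROD1, HES6, TOP2A and EZH2 but failed the check for a name, had 79.5 CPM of JUN in 120 knockout nuclei and 177 CPM in 166 wild type nuclei. Its ratio was 0.450 (0.311 to 0.641), with a log2 ratio of -1.15 that became -0.85 when immediate early genes were kept for clustering, and 3.87% of genes in this cluster were at -1 or lower. The knockout nuclei of cluster 16 also had less NEUROD1 (37.9 against 80.5 CPM) and HES6 (299 against 607 CPM), while EZH2 was at 375 and 345 CPM. Mature olfactory neuron-like nuclei (PDE1C and S100A5) had 59.5 CPM of JUN in 931 knockout nuclei and 103 CPM in 971 wild type nuclei, a ratio of 0.579 (0.482 to 0.692). In the wild type library JUN was thus higher in cluster 19 than in cluster 16, cluster 6 or mature nuclei, with no overlap of intervals. In the knockout library mature nuclei were lowest, with an interval that overlapped that of cluster 16. At matched depth the knockout and wild type shares of nuclei with a JUN UMI had overlapping intervals in cluster 16 and in mature nuclei. The shares were 5.98% (2.44 to 11.9) and 16.6% (11.1 to 23.3) in cluster 16. In mature nuclei they were 6.70% (5.15 to 8.54) and 9.98% (8.14 to 12.1).

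**Figure D2:**
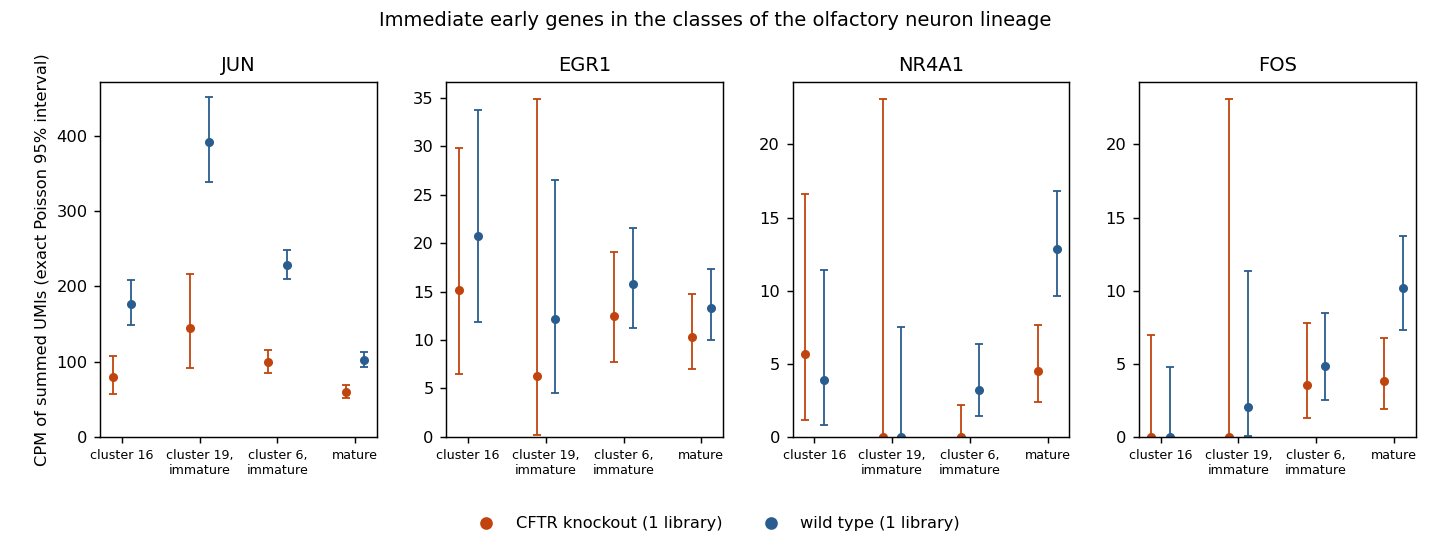
Levels of JUN, EGR1, NR4A1 and FOS in CPM (y axis) in cluster 16, clusters 19 and 6 of the immature neurons and mature neurons (x axis), with exact Poisson 95% intervals, for the CFTR knockout (orange, left) and wild type (blue, right) libraries. JUN was lower in the knockout library in all 4 groups of nuclei. In mature neurons NR4A1 was at 4.47 CPM in knockout and 12.9 CPM in wild type nuclei, and FOS at 3.78 and 10.2 CPM.

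Outside the neurons the JUN ratios ran in both directions. Sustentacular-like nuclei had 149 CPM in 606 knockout nuclei and 209 CPM in 770 wild type nuclei, a ratio of 0.711 (0.613 to 0.824). Their 2 clusters were unequally filled: cluster 0 held 276 knockout and 594 wild type nuclei with 165 and 202 CPM, and cluster 1 held 330 and 176 nuclei with 135 and 230 CPM. Cluster 8, a cluster with SOX9, AQP5, BPIFB4 and SLC6A11 that stayed unnamed, had 82.5 CPM in knockout and 159 CPM in wild type nuclei (ratio 0.518, 0.367 to 0.719). Macrophage-like nuclei went the other way, with 26 UMIs in 82 knockout nuclei (194 CPM) and 11 UMIs in 63 wild type nuclei (75.8 CPM), a ratio of 2.57 (1.23 to 5.75). In that class 11% of 3497 genes were at a log2 ratio of 1 or more. Intervals of the ratio included 1 in the glia-like (0.766, 0.513 to 1.14), fibroblast-like (0.671, 0.427 to 1.05), endothelial-like (1.36, 0.827 to 2.33) and cartilage or bone-like nuclei (1.58, 0.882 to 2.81). The glial value turned from -0.38 to 0.52 on the log2 scale at matched depth. There the knockout and wild type shares of nuclei with a JUN UMI had overlapping intervals in sustentacular-like nuclei (13.5% and 17.0%). The same held for cluster 8 (6.74% and 13.8%) and macrophage-like nuclei (13.4% and 7.27%).

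FOS, the AP-1 partner of JUN, had its highest levels in few classes of the knockout library, and its wild type order was less separated. In the knockout library 4 classes stood apart from the other 10: macrophage-like nuclei with 82.2 CPM (41.1 to 147), endothelial-like nuclei with 77.7 CPM (49.3 to 117), cluster 8 with 67.6 CPM (48.5 to 91.7) and respiratory secretory-like nuclei with 60.5 CPM (47.7 to 75.7). The next class, the glia, was at 18.4 CPM. In the wild type library cluster 21 had 68.3 CPM (34.1 to 122), endothelial-like nuclei 55.9 CPM (24.1 to 110) and horizontal basal-like nuclei (TP63 and EGFR) 23.8 CPM (11.4 to 43.8). Their intervals lay above those of 9, 8 and 3 of the 13 classes, and each class overlapped the next in the order. By UMIs, wild type FOS was most counted in sustentacular-like (49) and mature neuron-like nuclei (42). Cluster 21 held 11 FOS UMIs in 167 wild type nuclei with a median of 811 UMIs, of which mitochondrial transcripts made up 23.4%. No FOS UMI was found in cluster 16 in 120 knockout or 166 wild type nuclei, which allows up to 5.68 and 3.89 CPM.

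Cluster 8 and the mature neurons differed in FOS in opposite directions. Cluster 8 held 41 FOS UMIs in 27 of 224 knockout nuclei and 12 UMIs in 8 of 224 wild type nuclei, which is 67.6 and 13.5 CPM and a ratio of 5.02 (2.59 to 10.5). At matched depth 15 of 193 knockout nuclei (7.77%, 4.42 to 12.5) and 1 of 195 wild type nuclei (0.513%, 0.0130 to 2.82) had a FOS UMI. Of the genes of cluster 8, 5.8% were at a log2 ratio of 1 or more. Among the genes of the cluster, BPIFB4 was at 1776 CPM in knockout and 1917 CPM in wild type nuclei and SLC6A11 at 637 and 703 CPM, while SOX9 was at 41.2 and 61.7 CPM and AQP5 at 69.3 and 123 CPM. Secretory markers summed to 1921 CPM in knockout and 1079 CPM in wild type nuclei of cluster 8, and macrophage markers to 79.2 and 13.5 CPM. The part of these in the FOS values was not tested. In mature neurons FOS was at 11 UMIs in 931 knockout nuclei (3.78 CPM) and 42 UMIs in 971 wild type nuclei (10.2 CPM), a ratio of 0.372 (0.173 to 0.734) and a log2 ratio of -1.43, where 3.11% of genes were at -1 or lower. At matched depth 2 of 896 knockout (0.223%, 0.0270 to 0.804) and 7 of 942 wild type mature nuclei (0.743%, 0.299 to 1.53) had a FOS UMI. The intervals of these shares overlapped. Sustentacular-like nuclei had 16.9 and 18.5 CPM of FOS, with a ratio of 0.912 (0.562 to 1.46).

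**Figure D3:**
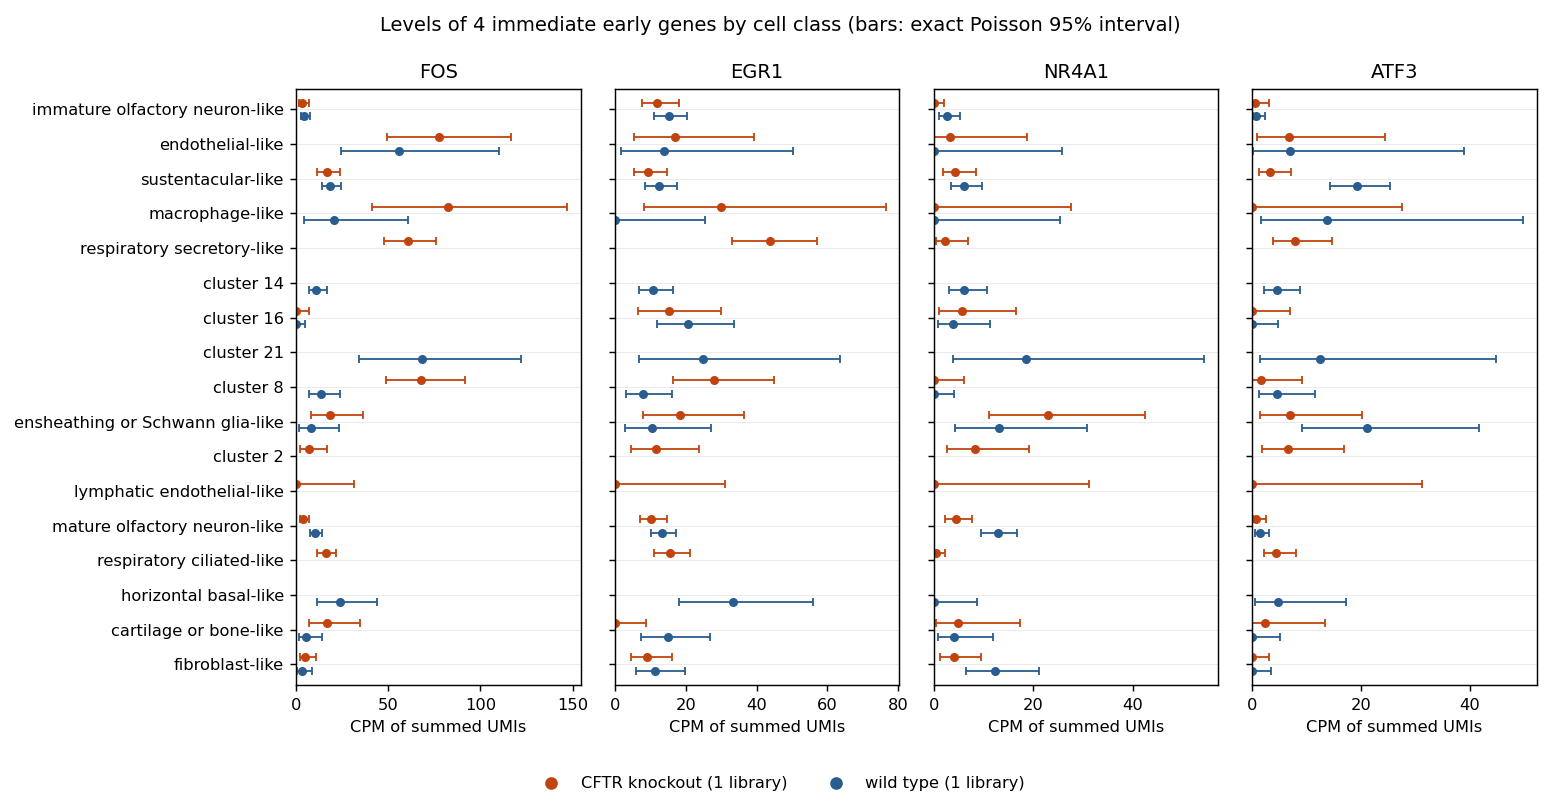
FOS, EGR1, NR4A1 and ATF3 in CPM of summed UMIs (x axes, scaled per gene) by cell class (y axis), for the CFTR knockout (orange, upper) and wild type (blue, lower) libraries with exact Poisson 95% intervals. Intervals that do not overlap include those of FOS in cluster 8 (67.6 and 13.5 CPM) and ATF3 in sustentacular-like nuclei (3.26 and 19.3 CPM). They also include those of FOS (3.78 and 10.2 CPM) and NR4A1 (4.47 and 12.9 CPM) in mature neurons. Of these, only FOS in cluster 8 kept intervals apart as a share of nuclei at matched depth.

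EGR1 had the ratio nearest to 1 over all nuclei of the 6 members with at least 20 UMIs, with 228 knockout and 236 wild type UMIs. In the knockout library it was highest in respiratory secretory-like nuclei at 43.8 CPM (33.0 to 57.0), above 9 of the 14 classes with a value. In the wild type library horizontal basal-like nuclei led with 33.4 CPM (18.2 to 56.0). In the neuronal classes the EGR1 values were lower in knockout than in wild type nuclei. They were 15.1 and 20.8 CPM in cluster 16, 12.0 and 15.2 CPM in immature and 10.3 and 13.3 CPM in mature nuclei. All 3 ratios had intervals that included 1. In cluster 8 there were 17 knockout and 7 wild type UMIs, 28.0 and 7.85 CPM, with a ratio of 3.57 (1.41 to 10.2), but a log2 ratio of 0.01 at matched depth, where 2 nuclei of each library had an EGR1 UMI. Cartilage or bone-like nuclei held 0 EGR1 UMIs in 212 knockout nuclei, which allows up to 7.23 CPM, and 11 UMIs in 302 wild type nuclei (15.0 CPM, 7.49 to 26.8).

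Mature neurons held more NR4A1 UMIs than any other class in each library. By CPM they were only at rank 5 of 14 knockout classes and rank 3 of 13 wild type classes. RefSeq annotates the pig NR4A1 locus of assembly Sscrofa11.1 as a pseudogene, so its values are given as uncertain. Mature neuron-like nuclei held 13 UMIs in 12 knockout nuclei (4.47 CPM, 2.38 to 7.65) and 53 UMIs in 44 wild type nuclei (12.9 CPM, 9.63 to 16.8). The ratio was 0.348 (0.174 to 0.647) and the log2 ratio -1.52. At matched depth 3 of 896 knockout (0.335%, 0.0691 to 0.975) and 14 of 942 wild type mature nuclei (1.49%, 0.815 to 2.48) had an NR4A1 UMI. The intervals of these shares overlapped. Immature neurons had 0 knockout UMIs, which allows up to 1.63 CPM, and 8 wild type UMIs (2.70 CPM). Glia-like nuclei had 23.1 CPM (11.1 to 42.4) in knockout and 13.2 CPM (4.28 to 30.8) in wild type nuclei, from 10 and 5 UMIs. NR4A2, the related nuclear receptor and the 1 of 20 counted genes of the other immediate early genes that was at -1 or lower in mature neurons (3.11% of all genes were), had 8.26 CPM in knockout and 22.1 CPM in wild type mature nuclei (24 and 91 UMIs, ratio 0.374, 0.228 to 0.592). ZFP36L1, ZFP36L2 and BHLHE40 were the 3 of those 20 genes at 1 or more there, at 15.1, 5.85 and 11.01 CPM in knockout and 5.58, 2.42 and 4.85 CPM in wild type nuclei, where 5.28% of all genes were. These 4 genes were named after their values were seen. Mature neurons had 0.843% mitochondrial UMIs in knockout and 2.92% in wild type nuclei, and the part of this in the results was not tested.

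ATF3 stood out in wild type sustentacular-like nuclei. There were 6 UMIs in 6 of 606 knockout nuclei (3.26 CPM, 1.20 to 7.11) and 51 UMIs in 32 of 770 wild type nuclei (19.3 CPM, 14.3 to 25.3). The ratio was 0.17 (0.0594 to 0.395) and the log2 ratio -2.56, in a class where 3.54% of genes were at -1 or lower. The difference was present in cluster 0 (5.96 and 21.7 CPM) and in cluster 1 (1.00 and 11.2 CPM), and the log2 ratio was -2.58 without the nucleus with most ATF3 UMIs of each library. At matched depth it was -1.20, with an ATF3 UMI in 4 of 577 knockout nuclei (0.693%, 0.189 to 1.77) and 7 of 752 wild type nuclei (0.931%, 0.375 to 1.91), so these shares were not distinguishable. Mitochondrial transcripts made up 1.23% of knockout and 3.70% of wild type UMIs in this class, and their part in the result was not tested. The wild type glial level of 21.1 CPM came from 8 UMIs of a single nucleus. Neurons had little ATF3, with 0.688 and 1.45 CPM in mature nuclei of knockout and wild type.

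JUNB, FOSB and IER2 were near the limit of detection. JUNB had 21 knockout and 7 wild type UMIs, each in a nucleus of its own, 1.39 and 0.409 CPM, with a ratio of 3.40 (1.39 to 9.46). FOSB, a FOS paralogue, had 16 and 2 UMIs, 1.06 and 0.117 CPM. IER2 had 5 and 6 UMIs. Respiratory secretory-like nuclei, which were numerous only in the knockout library (435 and 41 nuclei), held 5 of the 21 knockout JUNB UMIs and 5 of the 16 knockout FOSB UMIs. No compared class reached 20 UMIs for any of these 3 genes, so no ratio within a class was read.

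Over all nuclei the 6 members with at least 20 UMIs did not share a direction. The log2 ratio was 0.68 for FOS, -0.63 for JUN, 1.76 for JUNB, 0.13 for EGR1, -1.07 for NR4A1 and -0.92 for ATF3, against a median of 0.10 over 16106 genes. JUNB was 1 log2 unit or more higher, as were 6.86% of all genes, and NR4A1 was 1 unit or more lower, as were 3.02%. These values mix cell makeup with level, since respiratory ciliated-like nuclei (470 knockout and 33 wild type) and secretory-like nuclei were mostly knockout. So was the shallow cluster 2, with 993 knockout and 45 wild type nuclei. Clusters 14 (15 and 145) and 21 (15 and 167) were mostly wild type, and cluster 14 held 351 of the 2665 wild type JUN UMIs. Without the ciliated-like and secretory-like classes, a setting chosen after the data were seen, FOS was at 0.28, EGR1 at -0.23 and ATF3 at -1.54. With equal weight for each named class NR4A1 was at -0.21 and JUN at -0.16. Within the 10 compared classes 23 of 80 member values had at least 20 UMIs, of which 17 were below and 6 above a log2 ratio of 0. Of all genes, 41.4% (endothelial-like) to 49.0% (macrophage-like) were below 0 in a class. JUN alone gave 10 of the 23 values and 7 of the 17 below 0. Of the 23, 5 were at -1 or lower and 3 at 1 or more, and 8 intervals lay below and 3 above a ratio of 1. JUN gave 5 of those 8 intervals. Over all gene values in those classes 4.5% were at -1 or lower and 6.28% at 1 or more.

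**Figure D4:**
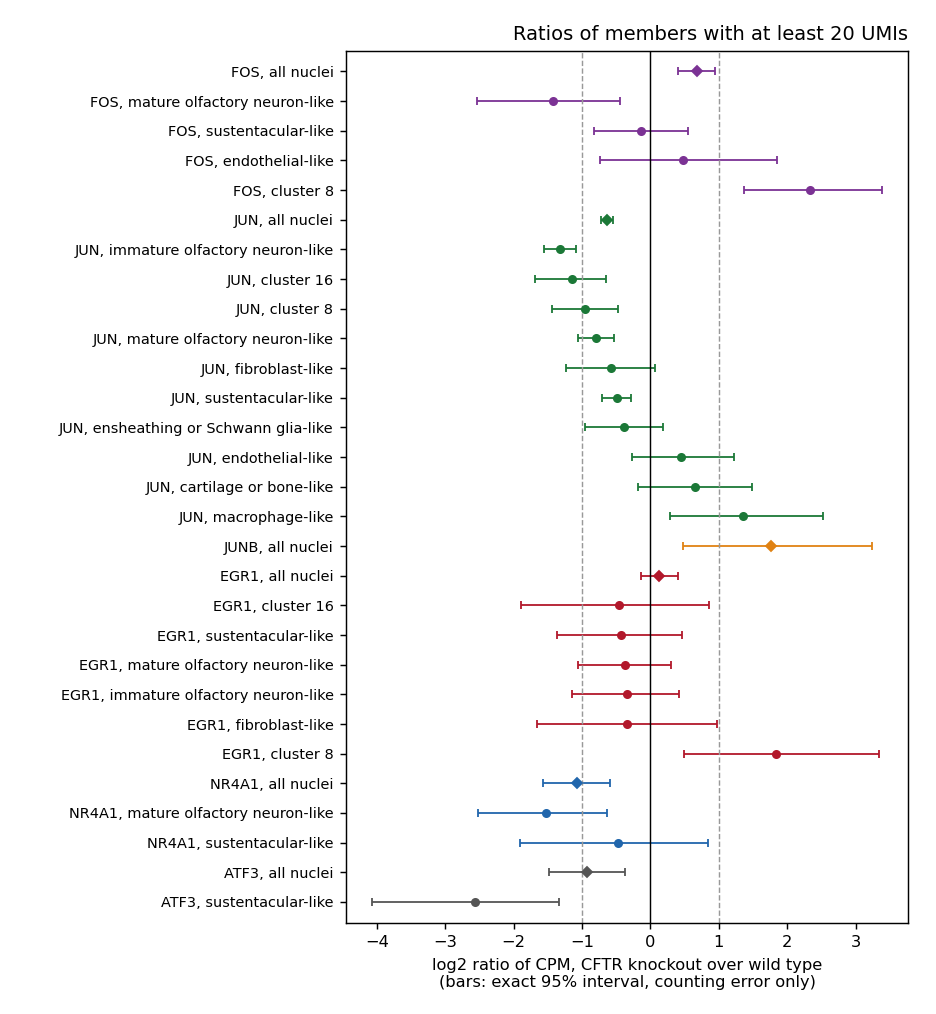
Log2 ratios of CPM, CFTR knockout over wild type (x axis), of members with at least 20 UMIs, over all nuclei (diamonds) and within classes (circles), with exact 95% intervals for counting error; dashed lines mark -1 and 1. JUN ranged from -1.32 in immature neurons to 1.36 in macrophages, and FOS from -1.43 in mature neurons to 2.33 in cluster 8.

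Members were found together in few nuclei. At 1000 UMIs per nucleus, 52 of 4436 knockout nuclei (1.17%, 0.877 to 1.53) and 28 of 4158 wild type nuclei (0.673%, 0.448 to 0.972) had UMIs of at least 2 members. The intervals overlapped, and without thinning the order was the opposite, at 3.75% in knockout and 4.85% in wild type nuclei. The 2 settings hold different nuclei, since thinning kept 41 of the 993 knockout nuclei of the shallow cluster 2. Without thinning that cluster gave 5 of 993 knockout and 1 of 45 wild type nuclei. The deep cluster 14 gave 1 of 15 and 31 of 145. The thinned counts come from a single random draw, whose variation the intervals leave out, and another draw gave a lower knockout share. By class the counts went both ways. There were 8 of 113 knockout and 0 of 46 wild type endothelial-like nuclei (0 allows up to 6.52%), 4 of 67 and 0 of 55 macrophage-like nuclei (up to 5.45%), and 5 of 169 and 0 of 142 glia-like nuclei (up to 2.11%). Fibroblast-like nuclei had 0 of 521 in the knockout library (up to 0.576%) and 3 of 417 in the wild type library, and immature neurons 0 of 506 (up to 0.593%) and 3 of 707. Sustentacular-like nuclei had 9 of 577 and 9 of 752, and mature neurons 3 of 896 and 4 of 942. The 408 knockout secretory-like nuclei held 18. Without thinning endothelial-like nuclei were level, at 13.3% (7.82 to 20.7) of knockout and 13.7% (5.70 to 26.3) of wild type nuclei. No nucleus of either library had more than 5 of the 8 members.

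Pairs of members were read as the share of nuclei with 1 member that also had the other. In the knockout library, at matched depth, JUN was detected in 26.6% (17.3 to 37.7) of 79 nuclei with FOS and in 8.81% (7.99 to 9.69) of those without, and EGR1 in 6.33% (2.09 to 14.2) and 1.33% (1.01 to 1.72). In the wild type library JUN was detected in 13.9% (4.67 to 29.5) of 36 nuclei with FOS and 12.7% (11.7 to 13.7) without, an interval that holds the knockout value. EGR1 was detected in 0% of those 36 wild type nuclei, which are too few to tell this from the knockout share of 6.33%. Without thinning JUN was in 47.6% of knockout and 47.8% of wild type nuclei with FOS. ATF3 was detected in the wild type library, at matched depth, in 4 of 36 nuclei with FOS (11.1%, 3.11 to 26.1) and 0.267% (0.133 to 0.477) without. At full depth the wild type sustentacular-like nuclei showed the same pair: 8 of 33 with FOS had ATF3 (24.2%, 11.1 to 42.3), against 3.26% (2.10 to 4.81) of those without. In cluster 8 of the knockout library 13 of 27 nuclei with FOS had JUN (48.1%, 28.7 to 68.0), against 12.2% (7.96 to 17.6) without FOS. Deeper nuclei hold more of every gene, and these last 2 shares were not matched for depth. The matched-depth shares pool all classes, and in the knockout library FOS and JUN were both high in endothelial-like, macrophage-like and secretory-like nuclei. What part cell makeup has in these shares was not tested. Whether the libraries differ in co-detection was not tested.

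Genes around the members were read from 6 lists, over all nuclei. Of all 16106 genes with at least 20 UMIs, 40.1% were below 0 and the median was 0.10. Of 35 other immediate early and primary response genes in the tables, 30 had at least 20 UMIs, with 17 above and 13 below 0 and a median log2 ratio of 0.20. KLF4, a zinc finger factor, had 112 knockout and 43 wild type UMIs (7.40 and 2.51 CPM, ratio 2.95, 2.06 to 4.30). It was also higher in knockout fibroblast-like (18.1 and 3.80 CPM) and sustentacular-like nuclei (9.79 and 3.40 CPM). HBEGF, an EGF receptor ligand, had 17 and 42 UMIs (1.12 and 2.45 CPM, log2 ratio -1.13). The 2 best counted of the list were ZFP36L1, an mRNA decay factor, at 77.6 and 69.4 CPM, and the clock gene PER1 at 74.0 and 61.2 CPM. In sustentacular-like nuclei 4 of 22 such genes were at -1 or lower, BTG2, TRIB1, SIK1 and MAFF, against 3.54% of all genes in that class. They were named after their values were seen, as was KLF2. With KLF4 it made the 2 of 22 at 1 or more, where 4.9% of all genes were. BTG2 was at 37.5 and 96.3 CPM (69 and 255 UMIs), and the ratio of MAFF had an interval that included 1 (0.137 to 1.39).

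Feedback and upstream genes had medians near 0, beside a median of 0.10 and 40.1% below 0 over all genes. Of 12 counted MAP kinase phosphatases and feedback regulators 5 were above and 7 below 0 (median -0.11); SPRY4, an ERK pathway inhibitor, had 17 and 39 UMIs (1.12 and 2.28 CPM), SPRED2 99.2 and 106 CPM and DUSP16, a JNK phosphatase, 108 and 97.4 CPM. Of 17 upstream factors and kinases 12 were above and 5 below 0 (median 0.05, and -0.06 with a size factor between the libraries). CREB1 was at 232 and 271 CPM and CAMK2D at 528 and 636 CPM. The 12 counted leucine zipper partners had 8 above and 4 below (median 0.24), with ATF7 at 409 and 421 CPM and ATF2 at 180.5 and 181 CPM. Of 11 heat shock genes 10 were above and 1 below 0 (median 0.26), with HSP90AA1 at 548 and 458 CPM and HSP90AB1 at 218 and 152 CPM. In mature neurons alone those 2 chaperone genes were lower in the knockout library, at 378 and 521 CPM and at 150.0 and 186 CPM.

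Genes linked to activity of olfactory neurons, as known mostly from mice, were mostly below 0. Of 11 counted, 3 were above and 8 below, with a median of -0.54 against 0.10 for all genes, of which 40.1% were below 0. The adhesion gene CNTN4 was at 1010 CPM in knockout and 1901 CPM in wild type nuclei, and the calcium-binding S100A5 at 561 and 477 CPM. Neurons were a smaller share of the knockout library, with mature neurons at 16.2% and 21.4% and immature neurons at 9.17% and 16.1% of nuclei. Fewer neurons and less RNA per neuron cannot be told apart in these summed values. Within mature neurons CNTN4 was at 2869 and 4067 CPM, a ratio of 0.705 (0.687 to 0.724), and S100A5 at 829 and 899 CPM, a ratio of 0.923 (0.876 to 0.972). S100A5 transcripts were spread over all 10 compared classes, with 333 to 829 CPM in knockout and 255 to 899 CPM in wild type nuclei, including 770.1 and 386 CPM in macrophage-like nuclei.

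**Figure D5:**
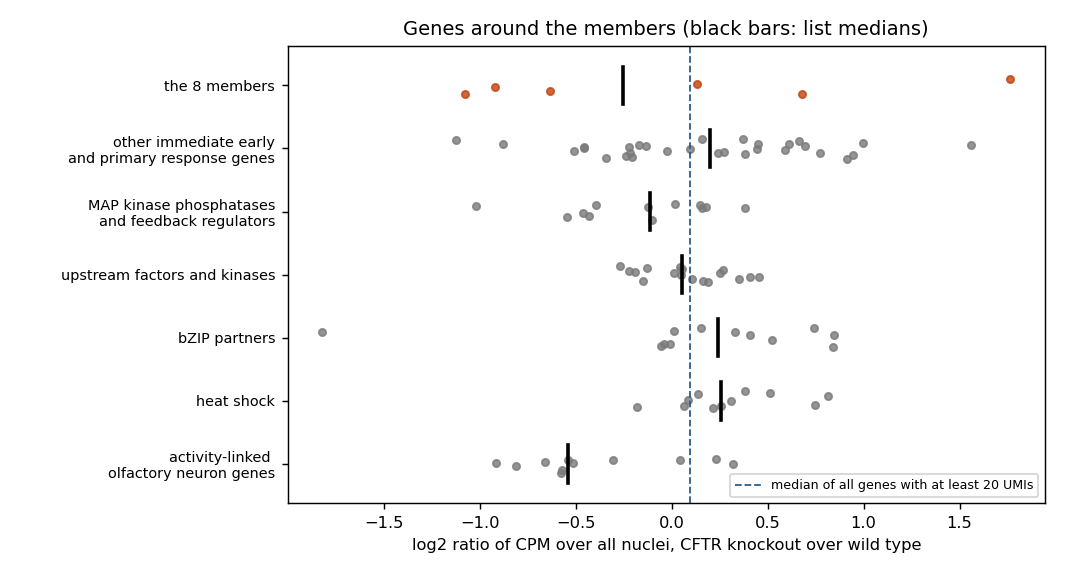
Log2 ratios over all nuclei, CFTR knockout over wild type (x axis), of each gene with at least 20 UMIs (points, jittered vertically) in the member set and 6 lists around it (y axis); black bars are list medians and the dashed line is the median of all such genes, 0.10. The activity-linked list has its median at -0.54 and the members spread from -1.07 to 1.76.

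Across 27 profiles of a class in a library, FOS and EGR1 were correlated at r = 0.52, FOS and JUN at 0.37 and JUN and EGR1 at 0.29. The profiles share libraries, depth and cell makeup. Of 10778 genes with at least 200 UMIs, the 10 whose profiles were on average most like those of FOS, JUN and EGR1 were AFMID, MTA2, PELP1, TMED5, NELFB, POGK, KHK, PRICKLE3, QARS and BTG2, with mean r from 0.47 to 0.53. BTG2, an antiproliferative early response gene, was the 1 gene among them that also stood in the list of other immediate early genes. These likenesses are weak and rest on sparse counts, and 4 of the 10 genes changed with a pseudocount of 5 in place of 20 CPM.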

How the data were processed

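Per the labels, nuclei of frozen mucosa were captured with 10x Genomics droplets. The authors deposited raw UMI counts for every gene in every barcode. Cell Ranger, R 4.0.2 and Seurat 4.0 appear in the submitters' processing notes without their roles. The genome build was not given in the sources used here, and no sequence is shown. The members and lists were chosen with earlier results of these data known.

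Nuclei under 200 genes were removed. Scrublet's threshold called 1 nucleus per library and had not worked, so the highest scores at 0.8% per 1000 nuclei were removed (293 knockout, 178 wild type). Clustering used scanpy 1.11.5 and python-igraph 0.11.9 (2000 variable genes, 30 components, 15 neighbours, Leiden resolution 1). A name needed 3 markers of 1 of 23 cell types and more than of any other. A cluster shallower than 0.333 of its library stayed unnamed. The naming score was set with the clusters in view.

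UMIs were summed per class and library and divided by all UMIs to give CPM, with exact Poisson intervals, exact conditional binomial intervals for ratios and Clopper-Pearson intervals for shares, all at 95%. A count of 0 was limited at 3 counts. Called means a log2 ratio past 1 with at least 20 UMIs. Shares were matched by thinning to 1000 UMIs per nucleus. Interval and ratio code was tested on simulated data. Named list genes were those past 1 with at least 50 UMIs, at most 6 per list, and the 2 with most UMIs.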

Additional observations from a re-analysis of the deposited data

Results flagged for a closer look

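The difference between the libraries in FOS had opposite signs in different classes. Its log2 ratio, CFTR knockout over wild type, was 2.33 in cluster 8 and -1.43 in mature olfactory neuron-like nuclei, with intervals on opposite sides of 0. JUN likewise was at 1.36 in macrophage-like nuclei, and at -1.32 in immature neurons, -0.79 in mature neurons, -0.49 in sustentacular-like nuclei, -0.95 in cluster 8 and -1.15 in cluster 16. The difference between classes was not tested, since each genotype had 1 library. The macrophage value rests on 26 knockout and 11 wild type UMIs. At matched depth the shares of mature neurons with a FOS UMI had overlapping intervals. So had the shares of nuclei with a JUN UMI in each class named here for JUN except the immature neurons.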

How the results depend on the processing

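No paired analysis was possible because each genotype had 1 library, and no library could be left out. Over all nuclei the count of members at -1 or lower was 1, and 2 with a median-ratio size factor or TMM, which shifted all log2 ratios by -0.11 and -0.09, and 0 with nuclei weighted equally. The count at 1 or more was 1, and 0 with nuclei weighted equally or a minimum of 50 UMIs. JUN in immature neurons stayed between -1.40 and -1.10 under every alternative run, and FOS and NR4A1 in mature neurons between -1.93 and -1.01 and between -2.15 and -1.50. FOS in cluster 8 ranged from 1.74 to 4.18. Wild type JUN in immature neurons was 228 CPM when each library was clustered on its own. At matched depth FOS and NR4A1 in sustentacular-like nuclei turned to 0.67 and 0.97.

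The share of nuclei with at least 2 members was 0.312% in knockout and 0.331% in wild type nuclei at 500 UMIs, 2.07% and 2.01% at 2000 UMIs, and 3.75% and 4.85% without thinning. One other random draw gave 0.812% in knockout nuclei. For at least 1 member the shares were 12.1% and 15.6%, and for at least 3 members 0.0225% and 0. Without thinning EGR1 was in 14.6% of knockout and 10.1% of wild type nuclei with FOS (10.6% of wild type nuclei at 2000 UMIs), and JUN in 47.6% and 47.8%. The median of the upstream factors turned to -0.059 with a size factor. With a pseudocount of 5 CPM 6 of the 10 most alike genes were shared. The cause of these changes was not tested. JUNB, FOSB and IER2 are limited by depth.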
